A study of Arabidopsis thaliana with 10 samples.

Results

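Dark-grown Arabidopsis thaliana seedlings that carry mutations in PIF genes together with mutations in EIN3 and EIL1 were compared with the wild type, gene by gene. The comparison took in every gene of the deposited table with an RPKM (reads scaled to the length of the gene and to the number of mapped reads) of 1 or more in pifq ein3 eil1 or in Col-0, which left 18047 of 33559 genes, and it rests on 4 of the 10 samples of the study. The mutant pifq ein3 eil1 combines mutations in PIF1, PIF3, PIF4 and PIF5 (pifq) with mutations in EIN3 and EIL1 (ein3 eil1), in the Col-0 background. Col-0 is the unmutated accession. Levels in pifq and in ein3 eil1 are set beside them, and the fifth genotype, hls1, was not used. All seedlings were etiolated for 3 days at 22 °C, after cold imbibition and a short exposure to light, and were harvested without their roots. Each genotype had 2 biological replicates. Neither the labels nor the files name the alleles behind the mutants.

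The PIFs, PHYTOCHROME INTERACTING FACTORs, are bHLH transcription factors that accumulate in darkness and keep a seedling in the etiolated state, with a long hypocotyl, closed cotyledons and chloroplasts that have not yet formed. EIN3 and EIL1 are the transcription factors at the end of the ethylene pathway: receptors and the kinase CTR1 hold the pathway off, EIN2 carries the signal, and the F-box proteins EBF1 and EBF2 remove EIN3. Both families act on the apical hook, the bend below the shoot tip that protects it during growth through soil and that needs HOOKLESS1 (HLS1) and an uneven distribution of auxin.

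The table gives 1 value per gene and genotype, the authors' mean of the 2 samples, so the spread between replicates cannot be seen and no difference was tested. A gene was called higher or lower when log2(RPKM + 1) in pifq ein3 eil1 less that in Col-0 was at least 1 in size, which is 2-fold in RPKM + 1. All values below are such means in RPKM, and all differences are pifq ein3 eil1 less Col-0 on the log2(RPKM + 1) scale, which understates the change of genes at low levels. Sequencing depth is unknown.

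By this threshold 708 genes (3.92% of those compared) were higher in pifq ein3 eil1 than in Col-0 and 1122 (6.22%) were lower, 10.1% in all. The remaining genes fell short of it, 348 of them with a difference between 0.9 and 1 in size, while 287 of those called lay between 1 and 1.1. Differences reached 2 or more for 134 higher (0.743%) and 233 lower genes (1.29%), and 4 or more for 10 higher and 34 lower genes. The median over all genes compared was -0.18, with quartiles of -0.42 and 0.09. After median-of-ratios scaling, which sets that median to 0.00, 927 genes (5.14%) were higher and 843 (4.67%) lower, 9.81% in all, so the share of called genes that were higher was 38.7% as deposited and 52.4% after scaling. List medians are therefore also given less the median of all genes. Counts of called list members below stand beside 3.92% higher and 6.22% lower over all genes compared. A gene under 1 RPKM in one genotype was compared only because the other was higher, which holds for 258 of the higher genes and 267 of the lower ones.

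**Figure D1:**
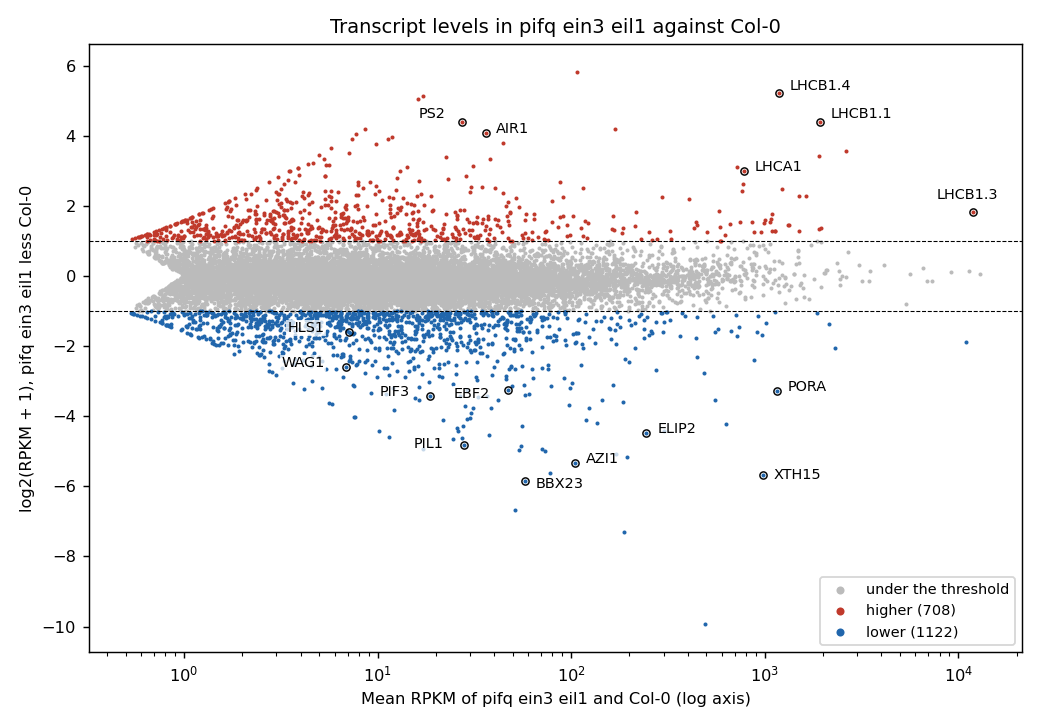
Difference in log2(RPKM + 1), pifq ein3 eil1 less Col-0, against the mean RPKM of both genotypes on a log axis, with 1 point per gene compared and dashed lines at the threshold of 1 either way. Both higher and lower genes are found at low and at high levels; XTH15 and PORA are among the abundant lower genes circled, and LHCB1.1, LHCB1.3 and LHCB1.4, among the abundant higher genes circled, encode chlorophyll-binding antenna proteins; the lowest point is ATCG01020, listed at 0 in pifq ein3 eil1.

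The mutated genes were looked at first as a check on the labels. EIN3 stood at 13.3 RPKM in pifq ein3 eil1, 57.2 in pifq, 17.9 in ein3 eil1 and 84.0 in Col-0, a difference of -2.57. EIL1 stood at 10.7 RPKM in pifq ein3 eil1, 35.6 in pifq, 10.8 in ein3 eil1 and 44.4 in Col-0, a difference of -1.96. Both were low in the 2 genotypes that carry the ein3 eil1 mutations. PIF3 was lowest in the combined mutant, at 2.35 RPKM in pifq ein3 eil1, 5.61 in pifq, 12.7 in ein3 eil1 and 35.1 in Col-0 (-3.43). PIF5 was lower in the 2 genotypes that carry the pifq mutations than in ein3 eil1 and Col-0. It stood at 2.31 RPKM in pifq ein3 eil1, 1.6 in pifq, 5.93 in ein3 eil1 and 4.34 in Col-0. Its difference of -0.69 was under the threshold. PIF1 and PIF4 did not mark the mutant in this way. PIF1 (11.8 RPKM in pifq ein3 eil1, 19.0 in Col-0) was under the threshold. PIF4 was higher, at 11.6 RPKM in pifq ein3 eil1 and 4.36 in Col-0 (1.24). A single RPKM per gene does not show whether its transcripts are intact, which was not tested. Among relatives that were not mutated, PIF6 was at 0.116 RPKM in pifq ein3 eil1 and 5.37 in Col-0 (-2.51) and PIF7, a PIF of the shade response, at 3.29 and 0.172 RPKM in pifq ein3 eil1 and Col-0 (1.87). PIF8 and EIL3 were under the threshold.

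HLS1, an N-acetyltransferase-like protein without which no hook forms, was at 3.04 RPKM in pifq ein3 eil1, 7.16 in pifq, 2.84 in ein3 eil1 and 11.2 in Col-0, a difference of -1.59. Its level in the combined mutant lay beside that in ein3 eil1. Of 17 genes for the hook and for auxin transport, all compared, 4 were lower and none higher, their median being -0.51, or -0.34 less that of all genes. The other 3 were SAUR17, WAG1 and WAG2. SAUR17, a SMALL AUXIN UP RNA that acts in the etiolated apex, was at 4.44 RPKM in pifq ein3 eil1, 11 in pifq, 12.3 in ein3 eil1 and 73.0 in Col-0 (-3.76). WAG1 and WAG2 encode AGC kinases that phosphorylate PIN auxin exporters. WAG1 was at 1.23 RPKM in pifq ein3 eil1, 2.67 in pifq, 4.18 in ein3 eil1 and 12.6 in Col-0 (-2.61). WAG2 was at 3.66 RPKM in pifq ein3 eil1, 8.75 in pifq, 11.3 in ein3 eil1 and 27.1 in Col-0 (-2.59). For these 3 genes the value of the combined mutant was below that of pifq and of ein3 eil1, both of which were below Col-0. The carriers themselves stayed under the threshold: PIN3, an exporter of the hook, was at 63.6 RPKM in pifq ein3 eil1 and 79.2 in Col-0, the importer AUX1 at 41.3 in pifq ein3 eil1 and 72.8 in Col-0, and the exporter ABCB19 at 66.4 in pifq ein3 eil1 and 70.0 in Col-0. The kinase gene PID was at 1.74 RPKM in pifq ein3 eil1 and 3.63 in Col-0 (-0.76).

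The 300 bases before the annotated start of 4 lower genes of the hook and auxin lists, and of the ethylene receptor gene ERS2, are shown because they hold a motif that PIFs or EIN3 are known to bind. The search, on both strands, was for the G-box CACGTG, for the PBE-box CACATG, both of them known PIF sites, and for ATGTAC, the core of EIN3 sites. The reverse complement of the PBE-box reads CATGTG, and that of the EIN3 core reads GTACAT. A PBE-box and an EIN3 core can share 3 bases, and the EIN3 core can overlap its own reverse complement. The sequences are from the RefSeq assembly TAIR10.1, run 5′ to 3′ on the strand of the gene and end at the base before the annotated start, with motifs in capitals. The windows are chr1:20048134-20048433 (WAG1, plus strand), chr3:4799613-4799912 (WAG2, minus), chr4:6029818-6030117 (SAUR17, minus), chr3:5263701-5264000 (IAA19, plus) and chr1:1157814-1158113 (ERS2, minus).
WAG1: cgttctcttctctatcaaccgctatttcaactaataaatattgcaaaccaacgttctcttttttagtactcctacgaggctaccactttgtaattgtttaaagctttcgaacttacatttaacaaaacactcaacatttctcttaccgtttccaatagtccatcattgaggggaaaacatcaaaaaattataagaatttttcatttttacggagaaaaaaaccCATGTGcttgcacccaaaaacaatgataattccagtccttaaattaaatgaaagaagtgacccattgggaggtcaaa
WAG2: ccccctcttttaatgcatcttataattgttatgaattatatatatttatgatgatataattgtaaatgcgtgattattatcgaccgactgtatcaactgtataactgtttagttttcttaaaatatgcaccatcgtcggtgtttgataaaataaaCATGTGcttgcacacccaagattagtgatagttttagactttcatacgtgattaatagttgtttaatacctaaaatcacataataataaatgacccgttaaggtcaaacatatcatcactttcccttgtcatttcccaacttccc
SAUR17: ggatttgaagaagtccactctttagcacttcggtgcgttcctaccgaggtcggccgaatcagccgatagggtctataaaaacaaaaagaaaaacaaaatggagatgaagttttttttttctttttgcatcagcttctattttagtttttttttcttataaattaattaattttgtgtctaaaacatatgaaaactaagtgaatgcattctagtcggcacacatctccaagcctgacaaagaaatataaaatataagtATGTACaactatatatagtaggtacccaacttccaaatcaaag
IAA19: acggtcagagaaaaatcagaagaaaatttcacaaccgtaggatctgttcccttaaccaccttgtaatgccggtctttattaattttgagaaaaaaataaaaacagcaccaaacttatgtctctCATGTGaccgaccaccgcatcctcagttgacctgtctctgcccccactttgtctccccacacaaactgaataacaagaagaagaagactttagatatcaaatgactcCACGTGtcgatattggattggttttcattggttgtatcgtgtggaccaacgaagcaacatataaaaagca
ERS2: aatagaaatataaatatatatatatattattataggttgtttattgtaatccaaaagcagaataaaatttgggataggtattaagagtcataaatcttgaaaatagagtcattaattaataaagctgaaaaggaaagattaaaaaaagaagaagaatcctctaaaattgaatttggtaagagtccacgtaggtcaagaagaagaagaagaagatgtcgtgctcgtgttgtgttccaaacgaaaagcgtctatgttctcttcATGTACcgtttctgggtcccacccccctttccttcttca
The PBE-box starts 77 bases before the start of WAG1 and 145 before that of WAG2. The longest run common to these 2 windows is CATGTGcttgcac, 13 bases that include the box. No other of the 17497 windows of protein-coding genes compared holds it on either strand. A run of that length seldom recurs, so its absence elsewhere says nothing particular of these 2 genes. SAUR17 holds ATGTAC 43 bases before its start and ERS2 39 before its own, and IAA19 holds a G-box at 70 and a PBE-box at 177. A PBE-box was present in 206 of 1087 windows of lower genes (19.0%), 89 of 654 of higher genes (13.6%) and 2269 of all 17497 (13.0%). The G-box shares were 8.65%, 8.72% and 7.98% in the same sets, and the ATGTAC shares 13.9%, 14.7% and 11.3%. The windows of HLS1, XTH15, EBF2, ETR2, PIL1, PORA, LHCB1.1 and LHCB1.4 hold none of the 3 motifs, which says only that these letters are not in those 300 bases. A match is not a binding site.

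Of 11 genes for ethylene receptors and signalling, 6 were lower and none higher, with a median of -1.03, or -0.85 less that of all genes. The receptor genes differed among themselves. ETR2 was at 5.95 RPKM in pifq ein3 eil1, 21.2 in pifq, 2.37 in ein3 eil1 and 26.7 in Col-0 (-1.99). ERS2 was at 1.77 RPKM in pifq ein3 eil1, 4.62 in pifq, 2.42 in ein3 eil1 and 9.33 in Col-0 (-1.90), and ERS1 at 16.6, 29.4, 19.0 and 46.2 RPKM in pifq ein3 eil1, pifq, ein3 eil1 and Col-0 (-1.42). ETR1 (6.60 RPKM in pifq ein3 eil1, 8.37 in Col-0) and EIN4 (8.10 in pifq ein3 eil1, 10.5 in Col-0) were under the threshold. RTE1, which acts on the receptor ETR1, differed by -1.03, and by -0.85 after scaling. The kinase gene CTR1 (23.4 RPKM in pifq ein3 eil1, 30.1 in Col-0) and EIN2 (27.7 in pifq ein3 eil1, 53.4 in Col-0; -0.92) were under the threshold. Downstream of them, EBF2 was at 8.07 RPKM in pifq ein3 eil1, 65.8 in pifq, 7.44 in ein3 eil1 and 86.1 in Col-0 (-3.26), and EBF1 at 8.90 in pifq ein3 eil1, 26.8 in pifq, 9.48 in ein3 eil1 and 36.1 in Col-0 (-1.91). Both EBF genes stood at the level of ein3 eil1.

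Of 12 ethylene response genes 9 were compared, with 4 lower and none higher (median -0.76, or -0.58 less that of all genes). ARL, a growth regulator of the ARGOS family, was at 22.3 RPKM in pifq ein3 eil1, 76.8 in pifq, 21.6 in ein3 eil1 and 103 in Col-0 (-2.16), a level like that of ein3 eil1. EDF3, an AP2/B3 transcription factor of the ethylene response, was at 4.72 RPKM in pifq ein3 eil1, 4.33 in pifq, 12.5 in ein3 eil1 and 34.2 in Col-0 (-2.62), a level like that of pifq. ARGOS (-1.93) and RAV1 (-1.60) were the others called, while EDF1 and EDF2, close relatives of EDF3, stayed under the threshold. Among 11 of 15 genes of ethylene synthesis, 4 were lower and 2 higher, with a median of -0.39, or -0.22 less that of all genes. The last step of synthesis is catalysed by ACC oxidases, whose genes went both ways. ACO5 was at 3.52 RPKM in pifq ein3 eil1, 5.64 in pifq, 55.2 in ein3 eil1 and 137 in Col-0 (-4.94). ACO4 was higher, at 140 RPKM in pifq ein3 eil1, 104 in pifq, 49.9 in ein3 eil1 and 41.6 in Col-0 (1.73). Of the ACC synthase genes, ACS5 (0.869 RPKM in pifq ein3 eil1, 17.7 in Col-0) and ACS2 were lower and ACS11, at 3.08 RPKM in pifq ein3 eil1 and 1.0 in Col-0, was higher.

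**Figure D2:**
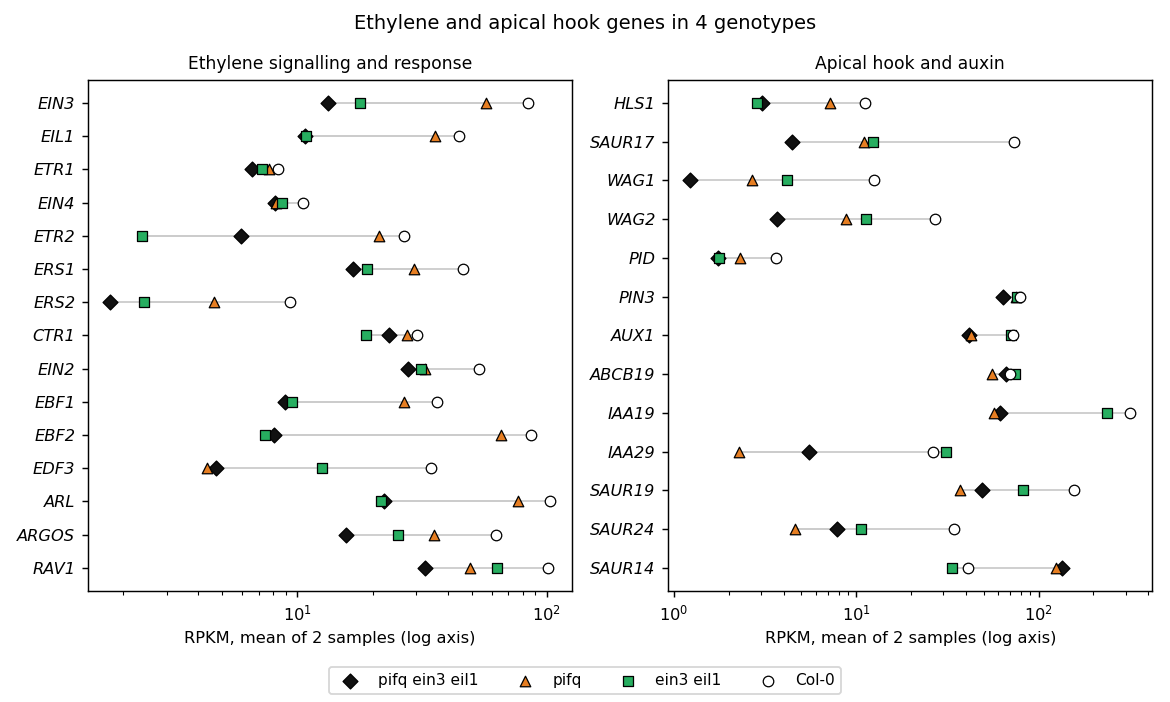
RPKM on a log axis (the authors' mean of 2 samples) of ethylene genes at left and hook and auxin genes at right, with 1 marker per genotype and gene. EBF1, EBF2, ARL and HLS1 lie together in pifq ein3 eil1 and ein3 eil1, EDF3 and IAA19 lie together in pifq ein3 eil1 and pifq, and SAUR17, WAG1 and WAG2 are lowest in pifq ein3 eil1.

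Part of the auxin-responsive genes were lower. Of 22 Aux/IAA and GH3 genes 7 were lower and none higher, with a median of -0.60, or -0.42 less that of all genes. After scaling 5 were lower and 1 higher. Among all 21 compared genes with an IAA symbol, 6 were lower and 1, which is not in the list, was higher as deposited. IAA19, an Aux/IAA repressor of the elongating hypocotyl, was at 61.2 RPKM in pifq ein3 eil1, 56.8 in pifq, 238 in ein3 eil1 and 319 in Col-0 (-2.36). IAA20 was at 16.5 RPKM in pifq ein3 eil1, 36.7 in pifq, 50.0 in ein3 eil1 and 109 in Col-0 (-2.65). Of the GH3 genes, whose products conjugate auxin to amino acids, GH3.5 alone was called, lower at -1.12, or -0.93 and under the threshold after scaling. GH3.3 was at 48.7 RPKM in pifq ein3 eil1 and 25.6 in Col-0 (0.90), under the threshold. Of 18 SAUR genes, growth genes induced by auxin within minutes, 9 were lower and 1 was higher, with a median of -1.05, or -0.88 less that of all genes. SAUR19 to SAUR24 are near-identical copies, and how reads were shared out among them is uncertain; of these 6, SAUR20 alone was under the threshold (-0.82), and SAUR24 was at 7.81 RPKM in pifq ein3 eil1 and 34.5 in Col-0 (-2.01). SAUR14 was the exception, at 134 RPKM in pifq ein3 eil1, 125 in pifq, 33.4 in ein3 eil1 and 41.0 in Col-0 (1.68). SAUR50 was under the threshold at 129 RPKM in pifq ein3 eil1 and 155 in Col-0. Among 8 of 12 genes of auxin synthesis YUC9, a flavin monooxygenase of the pathway, was the only one called, at 2.77 RPKM in pifq ein3 eil1 and 0.750 in Col-0 (1.11).

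Most listed genes that PIFs are known to induce in shade or darkness were lower. Of 19, all compared, 12 were lower (11 after scaling) and 1 (YUC9) higher, with a median of -1.94, or -1.76 less that of all genes. The list names PIF targets known from other work, and 8 of its 19 windows (42.1%) hold a PBE-box, against 13.0% of all windows, while 2 (10.5%) hold a G-box, against 7.98% of all. Among 21 light-harvesting antenna genes, 5 windows (23.8%) hold a G-box and 4 (19.0%) a PBE-box. XTH15, a xyloglucan-modifying wall enzyme, was at 36.7 RPKM in pifq ein3 eil1, 48.2 in pifq, 1219 in ein3 eil1 and 1922 in Col-0 (-5.67). PIL1 and HFR1 are HLH proteins that restrain the shade response. PIL1 was at 1.0 RPKM in pifq ein3 eil1, 1.08 in pifq, 62.7 in ein3 eil1 and 54.9 in Col-0 (-4.81), and HFR1 at 0.971 in pifq ein3 eil1, 1.42 in pifq, 56.3 in ein3 eil1 and 48.0 in Col-0 (-4.64). ATHB2, a homeodomain-leucine zipper factor of shade avoidance, was at 5.80 RPKM in pifq ein3 eil1, 5.95 in pifq, 63.9 in ein3 eil1 and 77.7 in Col-0 (-3.53). In these 4 genes the values of pifq ein3 eil1 and pifq lay together, and those of ein3 eil1 and Col-0 lay apart from them. ST2A, a sulfotransferase of jasmonate metabolism, differed by -2.96. YUC8, an auxin synthesis gene of the same list, was at 12.0 RPKM in pifq ein3 eil1 and 13.6 in Col-0 and was under the threshold.

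Light signalling genes that were called were mostly lower. Of 20 photoreceptor and light signalling genes 4 were lower and none higher, where 6.22% of all genes compared were lower and 3.92% higher. Their median was -0.35, or -0.17 less that of all genes. HY5, the bZIP factor that promotes development in light, was at 8.5 RPKM in pifq ein3 eil1, 8.33 in pifq, 17.0 in ein3 eil1 and 37.8 in Col-0 (-2.03). Its homologue HYH differed by -1.44. FHY1 (AT2G37678), which carries phytochrome A into the nucleus, was at 21.5 RPKM in pifq ein3 eil1 and 86.6 in Col-0 (-1.96), and PHYA, the photoreceptor itself, at 141 in pifq ein3 eil1 and 335 in Col-0 (-1.24). PHYB (-0.58), CRY1 (0.05) and COP1 (-0.33) were under the threshold. Of 8 B-box factors of light signalling, 5 were lower and 1 higher, with a median of -1.19, or -1.02 less that of all genes. BBX23, a partner of HY5, was at 1.02 RPKM in pifq ein3 eil1, 0.909 in pifq, 45.4 in ein3 eil1 and 114 in Col-0 (-5.84). BBX20 (-1.74), BBX28 (-1.56), BBX21 (-1.23) and BBX29 (-1.16, or -0.99 after scaling) were the other lower ones. BBX25 went the other way, at 19.6 RPKM in pifq ein3 eil1, 18.6 in pifq, 3.21 in ein3 eil1 and 3.27 in Col-0 (2.27). Outside the list, BBX17 (-3.13) and BBX8 (-1.13, or -0.96 after scaling) were lower and BBX16 (1.92) was higher.

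**Figure D3:**
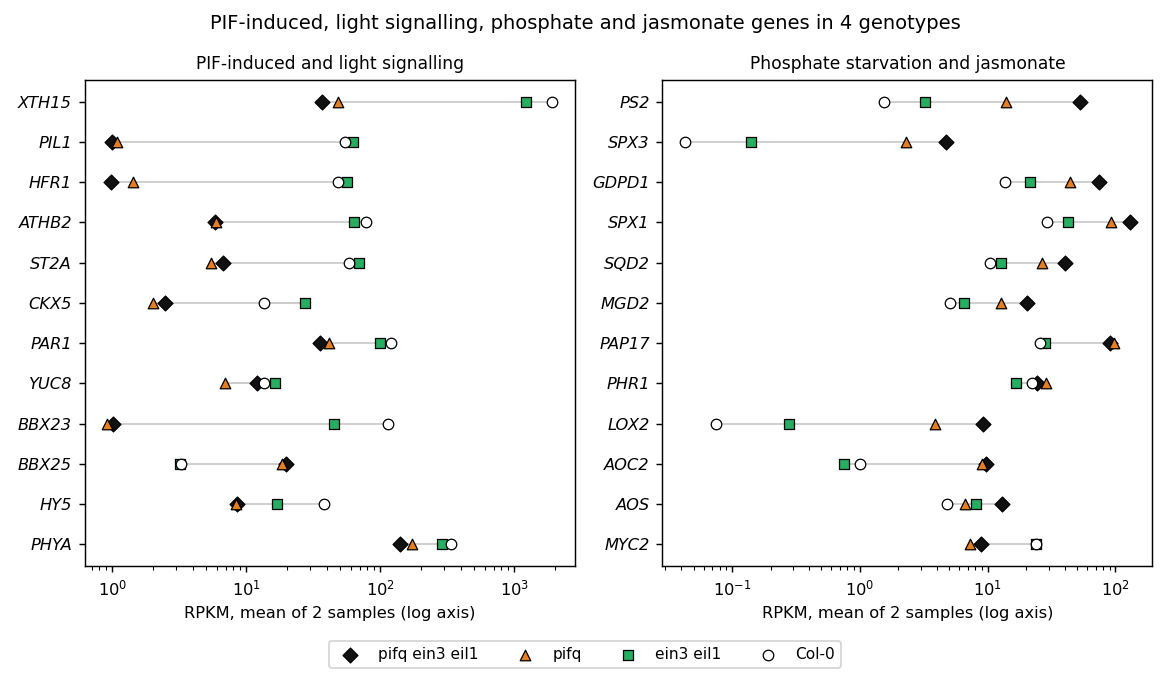
RPKM on a log axis (the authors' mean of 2 samples) of PIF-induced and light signalling genes at left and phosphate starvation and jasmonate genes at right, with 1 marker per genotype and gene. PIL1, HFR1 and BBX23 stand near 1 RPKM in pifq ein3 eil1 and pifq, and PS2, SPX3 and LOX2 are highest in pifq ein3 eil1 and lowest in Col-0.

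Most genes of the light-harvesting antenna and of photosystem I in the nucleus were higher, whereas most other nuclear photosynthesis genes listed were not called as deposited. Of 21 light-harvesting antenna genes 17 were higher and 1 was lower, with a median of 1.83, or 2.0 less that of all genes. Their summed level was 52173 RPKM in pifq ein3 eil1, 54620 in pifq, 19965 in ein3 eil1 and 11455 in Col-0. LHCB1.4, an antenna protein of photosystem II, was at 2316 RPKM in pifq ein3 eil1, 1875 in pifq, 341 in ein3 eil1 and 61.3 in Col-0 (5.22). LHCB1.1 was at 3696 RPKM in pifq ein3 eil1, 3468 in pifq, 954 in ein3 eil1 and 173 in Col-0 (4.41), and LHCB1.3, the most abundant, at 18629 in pifq ein3 eil1, 24893 in pifq, 6763 in ein3 eil1 and 5221 in Col-0 (1.83). The LHCB1 genes are near-identical copies, and no source used here says how reads were divided among them. LHCA1, of the photosystem I antenna, was at 1388 RPKM in pifq ein3 eil1, 1268 in pifq, 467 in ein3 eil1 and 171 in Col-0 (3.01). In these 4 genes ein3 eil1 lay between Col-0 and the 2 genotypes that carry the pifq mutations. The minor antenna gene LHCB4.3 was lower, at 4.1 RPKM in pifq ein3 eil1 and 12.4 in Col-0 (-1.39), and LHCB7, LHCA5 and LHCA6, antenna genes of low level, were under the threshold.

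The listed genes for photosystem subunits followed with smaller differences. Of 12 photosystem I genes 11 were higher and none lower, in a narrow range of 0.88 to 1.78 with a median of 1.31 (1.49 less that of all genes). PSAH2 was at 1696 RPKM in pifq ein3 eil1 and 494 in Col-0 (1.78), and PSAF, the plastocyanin-docking subunit, at 1948 in pifq ein3 eil1 and 710 in Col-0 (1.46). Of 11 photosystem II genes 4 were higher, or 8 after scaling, and none lower, at a median of 0.98 (1.15 less that of all genes). PSBW was at 1940 RPKM in pifq ein3 eil1 and 704 in Col-0 (1.46), whereas PSBS, needed for the dissipation of excess light, was at 673 in pifq ein3 eil1 and 1020 in Col-0 (-0.60). Of 10 electron transport and ATP synthase genes 1 was higher, or 3 after scaling: PETE1, a plastocyanin gene, was at 312 RPKM in pifq ein3 eil1 and 114 in Col-0 (1.44). Few genes of carbon fixation were called, at shares near those of all genes compared, 3.92% higher and 6.22% lower. Of 15 Rubisco and Calvin cycle genes 1 was higher, GAPA2 (1.28), and 1 lower, with a median of 0.27 (0.45 less that of all genes). The lower one was RBCS2B, a Rubisco small subunit gene, at 1205 RPKM in pifq ein3 eil1, 1927 in pifq, 3322 in ein3 eil1 and 3099 in Col-0 (-1.36). RBCS1A was at 9580 RPKM in pifq ein3 eil1 and 8833 in Col-0 (0.12). RBCS1B, RBCS2B and RBCS3B are near-identical, so their separate levels are uncertain too.

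In chlorophyll synthesis 2 genes of the light-dependent step were lower and most other genes were not called. PORA and PORB encode protochlorophyllide oxidoreductases, the enzymes that wait for light in etiolated plastids. PORA was at 213 RPKM in pifq ein3 eil1, 403 in pifq, 1411 in ein3 eil1 and 2089 in Col-0 (-3.29). PORB was at 459 RPKM in pifq ein3 eil1, 829 in pifq, 1091 in ein3 eil1 and 1482 in Col-0 (-1.69). For both, the combined mutant had the lowest of these 4 values. PORC, the form of green tissue, was under the threshold at 48.9 RPKM in pifq ein3 eil1 and 39.8 in Col-0. Of 28 other tetrapyrrole genes 3 were higher and none lower, with a median of 0.29 (0.46 less that of all genes). HEMA1, glutamyl-tRNA reductase at the entry of the pathway, was at 255 RPKM in pifq ein3 eil1 and 109 in Col-0 (1.22), GUN4, a cofactor of magnesium chelatase, at 310 in pifq ein3 eil1 and 147 in Col-0 (1.07), and CAO, which makes chlorophyll b, at 104 in pifq ein3 eil1 and 42.8 in Col-0 (1.27). ELIP1 and ELIP2, early light-induced chlorophyll-binding proteins that protect against excess light, were lower. ELIP1 was at 9.68 RPKM in pifq ein3 eil1, 10.3 in pifq, 274 in ein3 eil1 and 381 in Col-0 (-5.16), and ELIP2 at 20.3 in pifq ein3 eil1, 14.9 in pifq, 287 in ein3 eil1 and 469 in Col-0 (-4.46). None of 10 carotenoid and isoprenoid genes and none of 8 greening regulators was called; DXS, at the entry of plastid isoprenoid synthesis, was at 149 RPKM in pifq ein3 eil1 and 138 in Col-0, and the greening factors GLK1 and GLK2 differed by -0.34 and 0.71.

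**Figure D4:**
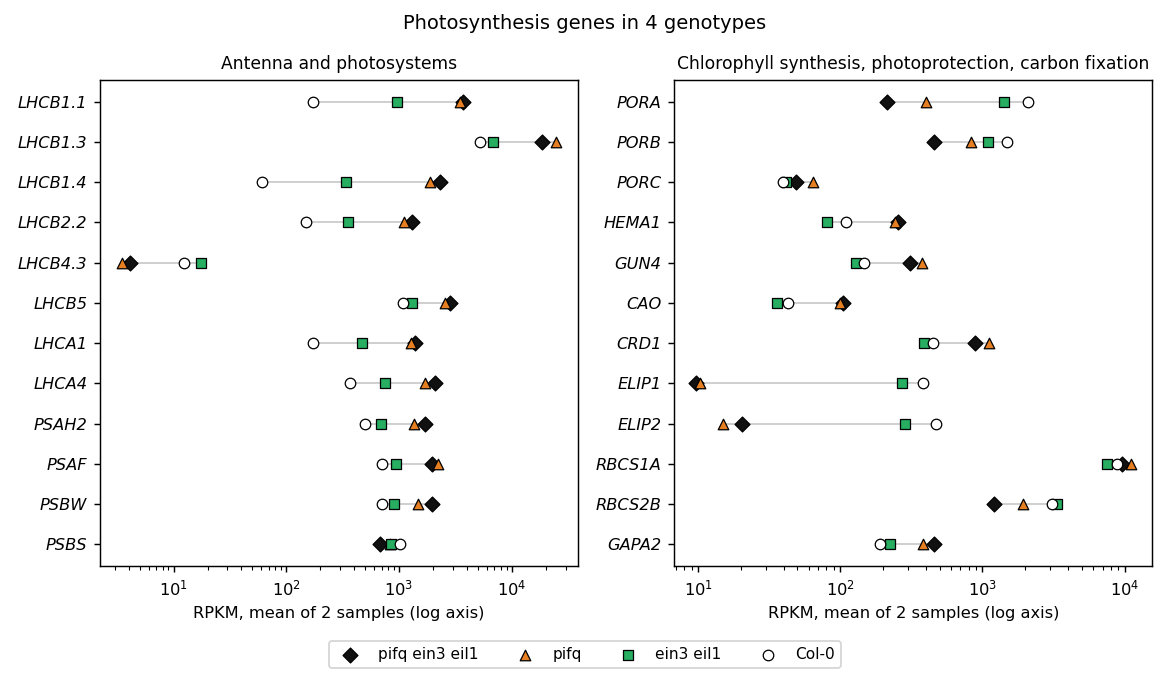
RPKM on a log axis (the authors' mean of 2 samples) of antenna and photosystem genes at left and of chlorophyll synthesis, photoprotection and carbon fixation genes at right, with 1 marker per genotype and gene. LHCB1.4 and LHCA1 stand at 2316 and 1388 RPKM in pifq ein3 eil1, PORA stands at 213 RPKM in pifq ein3 eil1 and 2089 in Col-0, and RBCS1A lies near the same level in all 4 genotypes.

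Wall genes were called in both directions. Of 16 XTH genes, xyloglucan endotransglucosylases of the primary wall, 7 were lower and none higher, with a median of -0.77, or -0.59 less that of all genes. XTH31 was at 60.9 RPKM in pifq ein3 eil1, 123 in pifq, 137 in ein3 eil1 and 338 in Col-0 (-2.45). XTH17 (-2.68) and XTH18 (-3.04) are near-identical, and their reads may be divided between them. XTH6, which is not in the list, was higher (1.72). XTH4, the most abundant, was at 1242 RPKM in pifq ein3 eil1 and 1497 in Col-0, under the threshold. Of 15 expansins, wall-loosening proteins, 5 were higher and 3 lower, with a median of 0.71, or 0.88 less that of all genes. EXPA1 was at 490 RPKM in pifq ein3 eil1, 339 in pifq, 148 in ein3 eil1 and 102 in Col-0 (2.25), and EXPA10 at 77.0 in pifq ein3 eil1, 83.7 in pifq, 24.7 in ein3 eil1 and 17.0 in Col-0 (2.11). EXPA9 went the other way, at 13.1 RPKM in pifq ein3 eil1, 12.5 in pifq, 188 in ein3 eil1 and 258 in Col-0 (-4.19). The 300 bases before EXPA1 (chr1:26141426-26141725, plus strand, TAIR10.1) and EXPA10 (chr1:9259132-9259431, plus strand) are shown because both genes were higher and both windows hold 2 overlapping PBE-boxes, 1 on each strand.
EXPA1: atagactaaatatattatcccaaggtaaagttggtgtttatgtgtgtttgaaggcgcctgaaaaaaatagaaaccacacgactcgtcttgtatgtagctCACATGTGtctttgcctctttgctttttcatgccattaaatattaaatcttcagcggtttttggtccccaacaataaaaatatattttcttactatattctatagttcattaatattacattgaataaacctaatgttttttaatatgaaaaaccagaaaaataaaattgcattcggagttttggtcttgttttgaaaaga
EXPA10: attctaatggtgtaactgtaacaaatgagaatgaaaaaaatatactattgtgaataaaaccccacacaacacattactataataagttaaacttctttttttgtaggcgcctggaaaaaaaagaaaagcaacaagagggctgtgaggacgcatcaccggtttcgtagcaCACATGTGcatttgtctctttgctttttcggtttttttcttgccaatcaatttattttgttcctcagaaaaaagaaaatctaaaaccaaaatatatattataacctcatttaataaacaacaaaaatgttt
The overlapping boxes begin 201 and 131 bases before the starts of EXPA1 and EXPA10. The longest run common to both windows, ctctttgctttttc of 14 bases, lies downstream of the boxes and is in no other of the 17497 windows. Here too, a run of that length seldom recurs. None of 8 cellulose synthase genes was called; CESA1 and CESA3, of the primary wall, were at 102 and 123 RPKM in pifq ein3 eil1 and 148 and 175 RPKM in Col-0.

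Most phosphate starvation genes compared were higher. Of 15, 14 were compared, with 9 higher and none lower and a median of 1.59, or 1.76 less that of all genes. PS2, a pyrophosphatase induced by phosphate starvation, was at 52.9 RPKM in pifq ein3 eil1, 14 in pifq, 3.21 in ein3 eil1 and 1.55 in Col-0 (4.40). SPX1, a phosphate sensor that inhibits PHR1, was at 130 RPKM in pifq ein3 eil1, 91.7 in pifq, 42.7 in ein3 eil1 and 29.0 in Col-0 (2.13). SPX3, of the same family, was at 4.69 RPKM in pifq ein3 eil1, 2.3 in pifq, 0.142 in ein3 eil1 and 0.0427 in Col-0 (2.45). All 3 were highest in the combined mutant, with pifq next and Col-0 lowest. SPX3 was compared only because pifq ein3 eil1 reached 1 RPKM. GDPD1 (2.36), SQD2 (1.84) and MGD2 (1.79) serve the replacement of phospholipids, and PAP17 (1.78) is an acid phosphatase. The regulator PHR1 (AT4G28610) was at 24.2 RPKM in pifq ein3 eil1 and 22.4 in Col-0, and the transporter gene PHT1;1 at 5.30 in pifq ein3 eil1 and 4.00 in Col-0, both under the threshold.

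Jasmonate synthesis and glucosinolate genes were also higher where they were called, beside 3.92% higher over all genes compared. LOX2, AOC2, MAM1 and CYP83A1 were under 1 RPKM in Col-0, so they were compared only because pifq ein3 eil1 was higher. Of 14 jasmonate genes 11 were compared, with 4 higher and 1 lower (median 0.65, or 0.83 less that of all genes). LOX2, the plastid lipoxygenase of the pathway, was at 9.16 RPKM in pifq ein3 eil1, 3.86 in pifq, 0.277 in ein3 eil1 and 0.0754 in Col-0 (3.24). The allene oxide cyclase gene AOC2 was at 9.66 RPKM in pifq ein3 eil1, 9.11 in pifq, 0.756 in ein3 eil1 and 0.995 in Col-0 (2.42); AOC1 (1.37) and AOS (1.28) were the others. MYC2, the transcription factor of the response, was lower, at 8.90 RPKM in pifq ein3 eil1 and 24.0 in Col-0 (-1.34), and the repressor gene JAZ1 differed by 0.05. Of 10 glucosinolate genes 9 were compared, with 4 higher and none lower (median 0.74, or 0.92 less that of all genes). CYP81F4, which modifies indole glucosinolates, was at 23.9 RPKM in pifq ein3 eil1, 10.6 in pifq, 23.6 in ein3 eil1 and 2.09 in Col-0 (3.01). MAM1 (1.79) and MYB28 (1.5), of the methionine-derived branch, and CYP83A1 (1.02) were the others, all 3 under 6 RPKM.

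**Figure D5:**
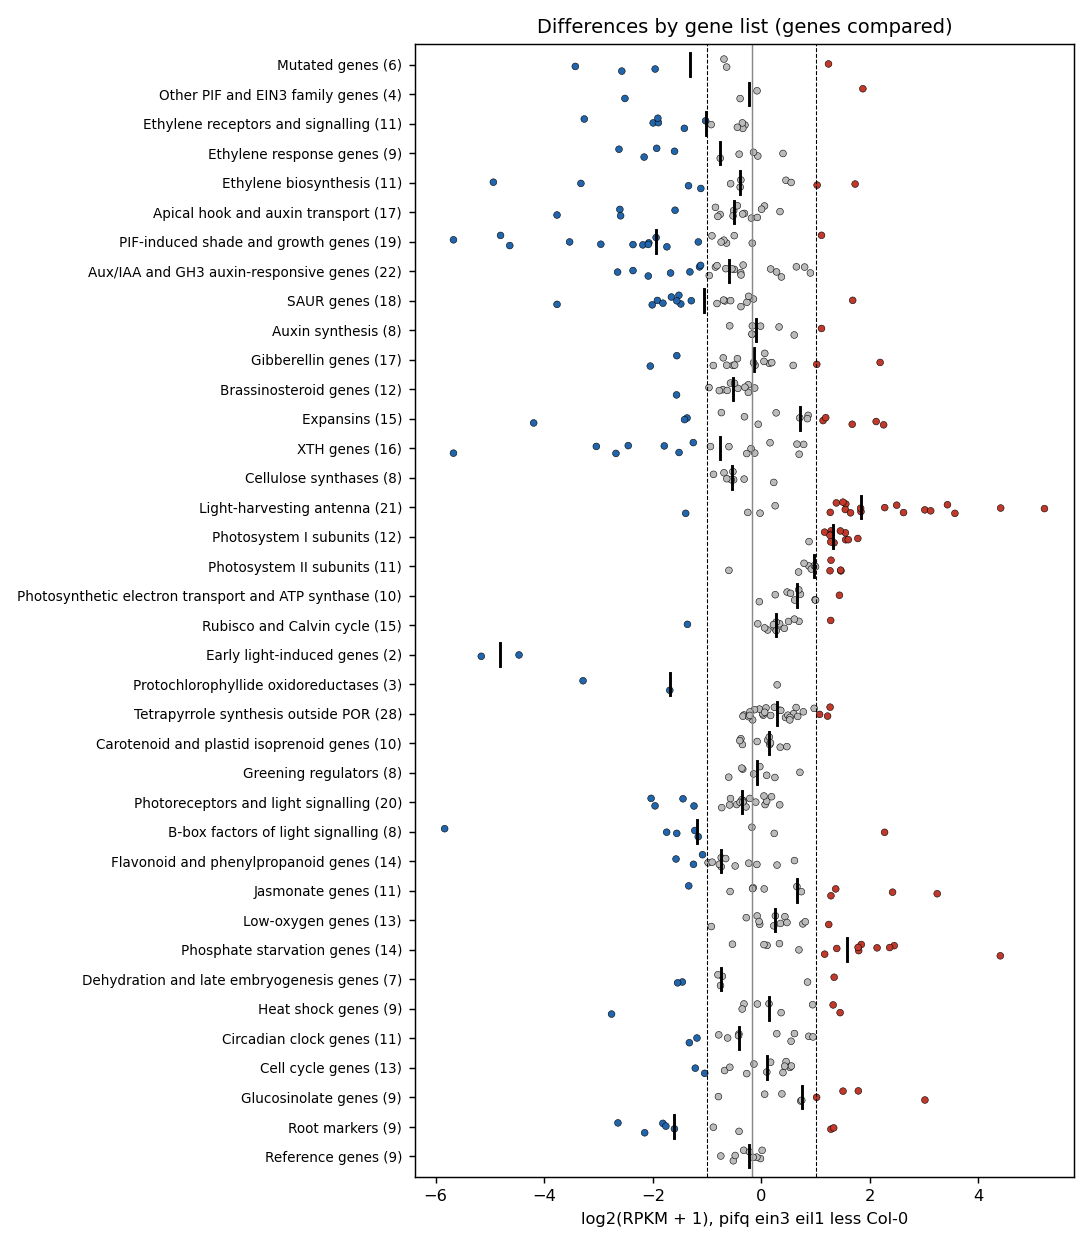
Difference in log2(RPKM + 1), pifq ein3 eil1 less Col-0, for each gene compared in 38 gene lists, with the number compared in parentheses, the list median as a black bar, the threshold of 1 either way as dashed lines and the median of all genes as a grey line; vertical scatter is only for display. The antenna, photosystem and phosphate starvation lists lie to the right, the PIF-induced and early light-induced lists to the left, and the expansins spread to both sides.

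The other lists had small numbers of genes called. In several of them these were still larger shares than over all genes compared, where 3.92% were higher and 6.22% lower. Of 17 gibberellin genes compared 2 were higher and 2 lower; GASA6 was at 668 RPKM in pifq ein3 eil1 and 146 in Col-0 (2.19), and GA2OX8, which inactivates gibberellin, at 3.37 in pifq ein3 eil1 and 17.1 in Col-0 (-2.05). Of 12 brassinosteroid genes ROT3 alone was called, lower at -1.56. Among 14 flavonoid genes MYB75, F3H and CHS were lower and none was higher, but CHS differed by -0.89 after scaling. HRE2 (1.24) was the one call in 13 low-oxygen genes. Cell cycle genes gave 2 lower of 13, SIM and SMR1, both inhibitors of cyclin-dependent kinases that act in endoreduplication; SMR1 differed by -0.85 after scaling. ELF4 and PRR3 were lower among 11 clock genes, while CCA1 and LHY, of the morning loop, were at 64.6 and 78.5 RPKM in pifq ein3 eil1 and 34.8 and 51.1 in Col-0, under the threshold as deposited; 2 clock genes, CCA1 and RVE1, were higher after scaling. Of 9 heat shock genes HSP17.6A and HSP17.6II were higher and HSP22.0 lower. Dehydration genes gave RD29A and RD29B lower and LEA7 higher among 7 compared. None of 9 reference genes was called (median -0.22); ACT2 was at 432 RPKM in pifq ein3 eil1 and 725 in Col-0.

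Some of the largest differences lay outside the lists. HB52, a homeodomain factor, was at 2.13 RPKM in pifq ein3 eil1, 6.93 in pifq, 44.5 in ein3 eil1 and 154 in Col-0 (-5.63). FAR1 (AT5G22500), a fatty acyl reductase of suberin and not the light signalling gene of the same name, was at 8.88 RPKM in pifq ein3 eil1, 28.4 in pifq, 85.3 in ein3 eil1 and 332 in Col-0 (-5.08). FLP1 (-4.97), related to the flowering factor FPF1, the cytochrome P450 gene CYP96A5 (-4.93) and GRF7 (AT5G53660; -4.85), a growth-regulating factor, completed the 10 lowest genes that have a symbol. The gene AT5G57760 was at 1.37 RPKM in pifq ein3 eil1, 32.9 in pifq, 7.63 in ein3 eil1 and 373 in Col-0 (-7.30), so it was low in each genotype that carries either set of mutations. On the other side, AT5G20790 was at 212 RPKM in pifq ein3 eil1, 148 in pifq, 31.8 in ein3 eil1 and 2.73 in Col-0 (5.84), and AT5G48490 at 322 in pifq ein3 eil1, 201 in pifq, 67.7 in ein3 eil1 and 16.6 in Col-0 (4.2). PEPC1 (AT1G17710), a phosphatase gene of the phosphate response, differed by 3.93, BCB, a blue copper-binding protein, by 3.91, ECS1 by 3.40 and QQS, which affects starch content, by 3.16. PEPC1, BCB and QQS were under 1 RPKM in Col-0.

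A run of neighbouring genes for hybrid proline-rich proteins held differences of both signs. AZI1, which acts in systemic immunity, was at 4.15 RPKM in pifq ein3 eil1, 31.8 in pifq, 7.46 in ein3 eil1 and 206 in Col-0 (-5.33). Further along, AT4G12510 was at 12.1 RPKM in pifq ein3 eil1, 13.9 in pifq, 140 in ein3 eil1 and 225 in Col-0 (-4.11), and AT4G12520 at 63.4 in pifq ein3 eil1, 66.7 in pifq, 681 in ein3 eil1 and 1199 in Col-0 (-4.22). These 2 were low in both genotypes that carry the pifq mutations. At the end of the run, AIR1, a gene first found as auxin-induced in roots, was at 69.1 RPKM in pifq ein3 eil1, 7.42 in pifq, 36.0 in ein3 eil1 and 3.15 in Col-0 (4.08), and its neighbour AT4G12545 at 83.6 in pifq ein3 eil1, 9.48 in pifq, 55.5 in ein3 eil1 and 5.02 in Col-0 (3.81). Both were higher in ein3 eil1 than in pifq. The genes are related in sequence, so reads may be divided among them.

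The labels exclude roots, yet 9 of 14 root markers passed the filter, of which 5 were lower and 2 higher; COBL9, RHD6, PLT1, PLT2 and NRT2.1 were under 1 RPKM in both genotypes. Their summed level over all 14 was 60.4 RPKM in pifq ein3 eil1, 39.4 in pifq, 220 in ein3 eil1 and 195 in Col-0. CASP1, a Casparian strip protein of the endodermis, was at 18.1 RPKM in pifq ein3 eil1 and 83.8 in Col-0 (-2.15); CASP2, MYB36 and TIP2;3 were lower too, while PRP3 (1.28) and MRN1 (1.33) were higher. In bulk tissue fewer cells of a type and less RNA per cell cannot be told apart. The part of root tissue in the lower genes was not tested. Over all genes compared 6.22% were lower and 3.92% higher. None of 7 seed storage and oil body genes reached 1 RPKM in either genotype. Plastid-encoded genes, in libraries made from polyadenylated RNA, gave 26 higher and 3 lower of 76 compared, with a median of 0.66, and made up 3.24% of the summed RPKM in pifq ein3 eil1, 2.61% in pifq, 7.05% in ein3 eil1 and 2.72% in Col-0. All 105 genes compared that are listed at 0 in one of the genotypes pass the threshold by construction; 13 of them are at 10 RPKM or more in the other, such as NRPB12, an RNA polymerase II subunit gene, listed at 0 in pifq ein3 eil1 and at 22.9 RPKM in Col-0. No fold change is given for these genes.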

How the data were processed

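Dark-grown seedlings without roots, 2 biological replicates per genotype, were sequenced from directional libraries of polyadenylated RNA as paired 150 nt reads, per the labels. The authors deposited RPKM, 1 value per gene and genotype; the submitters' processing notes name TAIR10 and BWA 0.7.7, while no source used here names how reads were counted, on which strand or over which gene lengths. Of the values above 0 in pifq ein3 eil1 and in Col-0, 51.0% and 51.3% carry 7 or more digits, and the last digit is 5 in 95.5% and 96.0% of these, a mark of averaging 2 rounded numbers. Each value was therefore taken as a mean of 2 samples. Depth is unknown, so no interval or floor was computed, and the count of columns left without a genotype was 0.

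With 1 value per genotype limma could not be fitted, and a difference of 1 or more in log2(RPKM + 1) was used as the rule, with a pseudocount of 1 and an RPKM minimum of 1 in either genotype. The calling rule was run on simulated data with little noise, no genes of low level and changes well past the threshold. That run checked the code and says nothing of how reliable the calls are here. Gene names came from the RefSeq table of TAIR10.1, which held 32817 of the identifiers and lacked 742. Descriptions in the deposited table do not match the identifiers beside them and were left aside; EIN3, EIL1 and PIF3 follow the identifiers.

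The 39 gene lists (495 genes, 453 compared, of which 74 were higher and 90 lower), like the comparison itself, were chosen with earlier results of these data known. Named genes were the 6 mutated genes and HLS1, the 10 largest differences each way with a symbol, at least 10 RPKM in the higher genotype and a value above 0 in the other, up to 6 called members each way per list (where none was called, the 2 with the highest level), and the 6 largest each way at a mean of 100 RPKM or more. Other genes named, among them members under the threshold, the neighbours of AZI1 and AIR1, and the genes listed at 0, were chosen after their values were seen, as were the promoters. Some genes that the rule covers are not reported here. Promoter windows are the 300 bases before the annotated gene start in TAIR10.1. The alternatives changed the pseudocount to 0.1 or 0.5, the filter to none or to 5 RPKM, the scaling to median-of-ratios or quantile normalization, and the threshold to 2, or omitted genes with a value of 0. Python 3.11.15 with pandas 2.3.3, numpy 2.4.6 and matplotlib 3.10.9 was used.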

Additional observations from a re-analysis of the deposited data

How the results depend on the processing

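No paired analysis was possible because the deposited columns hold 1 mean per genotype and no replicate values; for the same reason limma, a replicate block and leaving out a replicate were not run, and a difference carried by 1 of the 2 samples cannot be seen. At a difference of 2 or more, 134 genes were higher and 233 lower, 55 of 164 called list members passed, and 64 of 149 named genes that passed the threshold still did. Under the other alternatives the higher genes numbered 481 (RPKM minimum of 5) to 998 (pseudocount of 0.1), against 708, and the lower ones 843 (median-of-ratios scaling) to 1557 (pseudocount of 0.1), against 1122. Of 159 named genes none that passed the threshold changed sign. Under the pseudocounts and median-of-ratios scaling this could hardly have come out otherwise. A pseudocount cannot reverse a sign, and that scaling moved the median of all genes only from -0.18 to 0.00. GAPC1, a reference gene under the threshold, was at -0.08 as deposited and 0.12 after scaling. RTE1, IAA2, BBX29, CHS and SMR1 were under the threshold after scaling, at -0.85, -0.94, -0.99, -0.89 and -0.85, and also after quantile normalization. Photosystem II had 4 higher genes as deposited and 8 after scaling, and the flavonoid list had 3 lower genes with a pseudocount of 1, 5 with 0.5 and 7 with 0.1.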

Other observations

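Arabinogalactan proteins, heavily glycosylated proteins of the cell surface and wall, showed lower members of high level. Genes sharing the symbol AGP gave 28 compared, with 7 lower and 3 higher as deposited, and 6 lower and 3 higher after scaling. AGP22 was at 25.9 RPKM in pifq ein3 eil1, 33.6 in pifq, 378 in ein3 eil1 and 576 in Col-0 (-4.42). AGP4 was at 284 RPKM in pifq ein3 eil1, 406 in pifq, 1002 in ein3 eil1 and 1485 in Col-0 (-2.38). In both genes the values of pifq ein3 eil1 and pifq were below those of ein3 eil1 and Col-0. AGP21 and AGP12, the most abundant, were at 1306 and 1269 RPKM in pifq ein3 eil1 and 2065 and 1917 in Col-0, under the threshold. AGP3 (1.58), AGP17 (1.37) and AGP30 (1.21) were higher.

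The fasciclin-like relatives, FLA, gave 14 compared, with 6 lower and 1 higher as deposited, and 4 lower and 1 higher after scaling. FLA13 was at 21.9 RPKM in pifq ein3 eil1, 25.1 in pifq, 206 in ein3 eil1 and 266 in Col-0 (-3.54), while FLA8 was at 186 RPKM in pifq ein3 eil1 and 177 in Col-0. Over all genes compared 6.22% were lower and 3.92% higher as deposited, and 4.67% lower and 5.14% higher after scaling. The AGP and FLA families were picked, after the values were seen, from 107 groups of at least 10 compared genes with a shared symbol stem. Their counts are therefore descriptions.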
